A study of Homo sapiens with 8 samples.

Results

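Autophagy is represented here by 10 genes, *ULK1*, *BECN1*, *WIPI1*, *ATG5*, *ATG7*, *MAP1LC3B*, *GABARAPL1*, *GABARAPL2*, *SQSTM1*, and *TFEB*, which were taken by symbol from an expression table of 60754 genes and spike-in sequences. All 10 were found in 1 row each, and all 10 were among the 15614 genes that reached the expression filter and were tested. The cells were SEM, a line of human B-cell acute lymphoblastic leukemia with a *KMT2A* rearrangement. In every group both *CTCF* alleles carried miniAID-mClover3, a degron tag fused to a fluorescent protein. Every group also expressed OsTIR1(F74G), the plant F-box protein that binds the tag when the auxin analog 5-Ph-IAA is present, from a lentiviral cassette with an MND promoter and Zeocin resistance. Clones C17.2 and C3.2 are each a single clone, with 2 libraries of untreated parental cells and 2 libraries of resistant cells, 8 libraries in all. The resistant cells had been kept for 36 days in medium with Zeocin at 100 μg/ml and 5-Ph-IAA at 1 μM, and were taken off treatment before RNA was made. Resistant C17.2 carried a truncated CTCF that ends before the tag, whereas resistant C3.2 carried a missense mutation within the tag. In resistant C17.2 the paper also saw the full-length tagged CTCF protein return once auxin was removed. The question was how RNA of the autophagy genes differed between resistant and parental cells of each clone.

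Autophagy encloses part of the cytoplasm in a double membrane, the autophagosome, and delivers it to lysosomes for breakdown. The kinase ULK1 starts the process, a lipid kinase complex with BECN1 makes the phosphoinositide PI3P, and WIPI proteins read that lipid on the growing membrane. ATG7 and ATG5 work in the conjugation reactions that attach proteins of the ATG8 family, the LC3 and GABARAP proteins, to the membrane. Cargo receptors such as SQSTM1 (p62) bind ubiquitinated cargo and ATG8 proteins together and are broken down with their cargo, and TFEB is a transcription factor of lysosome and autophagy genes that mTORC1 holds back in fed cells. RNA levels alone do not measure how much material passes through this pathway.

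The deposited values were TPM (abundance per length of transcript, with the same total in each library). They keep no record of sequencing depth, which is thus unknown, and give no counting error. Protein-coding genes took from 36.0% to 43.3% of TPM and small nuclear RNA genes from 31.2% to 37.6%, so the libraries were divided by factors between 0.893 and 1.16 to align the bulk of genes, and the levels below are these scaled TPM. Fold changes are differences of log2(scaled TPM + 1), which understates changes of genes with low levels. Across genes, Pearson's r between libraries of a group ran from 0.968 to 0.979, where genes are not independent replicates. The labels do not say that they came from separate cultures, so the p values measure only the spread between these libraries. The tagged gene, *CTCF*, rose in resistant cells of both clones, with log2 fold changes of 0.44 in C17.2 (adjusted p = 0.000795) and 0.34 in C3.2 (adjusted p = 0.00680). Of 9 B-lineage markers, 8 were expressed, with sums from 703 to 888 TPM per library. In resistant cells 4 of the 8 fell in each clone. Of all tested genes, 13.9% in C17.2 and 6.9% in C3.2 fell with an adjusted p under 0.05. The markers that fell in both clones included *IGLL1* (log2 fold changes of -2.16 and -2.35), which encodes part of the surrogate light chain. The B-lineage factor gene *PAX5* rose in C3.2 (0.27, adjusted p = 0.0229). T-cell markers summed to at most 0.25 TPM, erythroid markers to at most 0.2 TPM and myeloid markers to between 2.23 and 4.1 TPM, with *CD3D* at 0 throughout. Of the stromal markers *COL1A2* was at 0, and *COL1A1* rose in C17.2 (log2 fold change of 0.93, adjusted p = 0.00341). The part of these markers in the results below was not tested. In bulk RNA, fewer cells of a type and less RNA per cell cannot be told apart.

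Over the 8 libraries, *GABARAPL2* had the highest mean level of the 10 genes at 39.7 scaled TPM, followed by *SQSTM1* (36.3), *BECN1* (28.2), *ULK1* (21.1), and *MAP1LC3B* (15.7). *ATG5* (13.1), *TFEB* (12.7), and *ATG7* (12.1) lay close together, and *WIPI1* (2.73) and *GABARAPL1* (2.09) were far lower. *SQSTM1* exceeded *BECN1*, *ULK1* exceeded *MAP1LC3B*, and *ATG7* exceeded *WIPI1* in 8 of 8 libraries, whereas *GABARAPL2* exceeded *SQSTM1* and *BECN1* exceeded *ULK1* in 7 of 8. The order of *ATG5*, *TFEB*, and *ATG7* was not fixed, since *ATG5* exceeded *TFEB* in 3 of 8 libraries and *TFEB* exceeded *ATG7* in 4 of 8, and *WIPI1* exceeded *GABARAPL1* in 5 of 8. The coefficient of variation over the libraries was smallest for *ATG5* (7.39%) and *ATG7* (7.87%) and largest for *WIPI1* (53.4%), *GABARAPL1* (41.4%), and *TFEB* (20.3%). Most of the RNA of the group therefore came from genes with a smaller coefficient of variation than *WIPI1*, *GABARAPL1*, and *TFEB*. The sum of the 10 genes was 171.7 and 174 scaled TPM in parental and 185.6 and 181.5 in resistant C17.2. In C3.2 it was 179.6 and 182.6 in parental and 195.1 and 199 in resistant cells. Both resistant libraries were thus above both parental libraries in each clone.

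**Figure D1:**
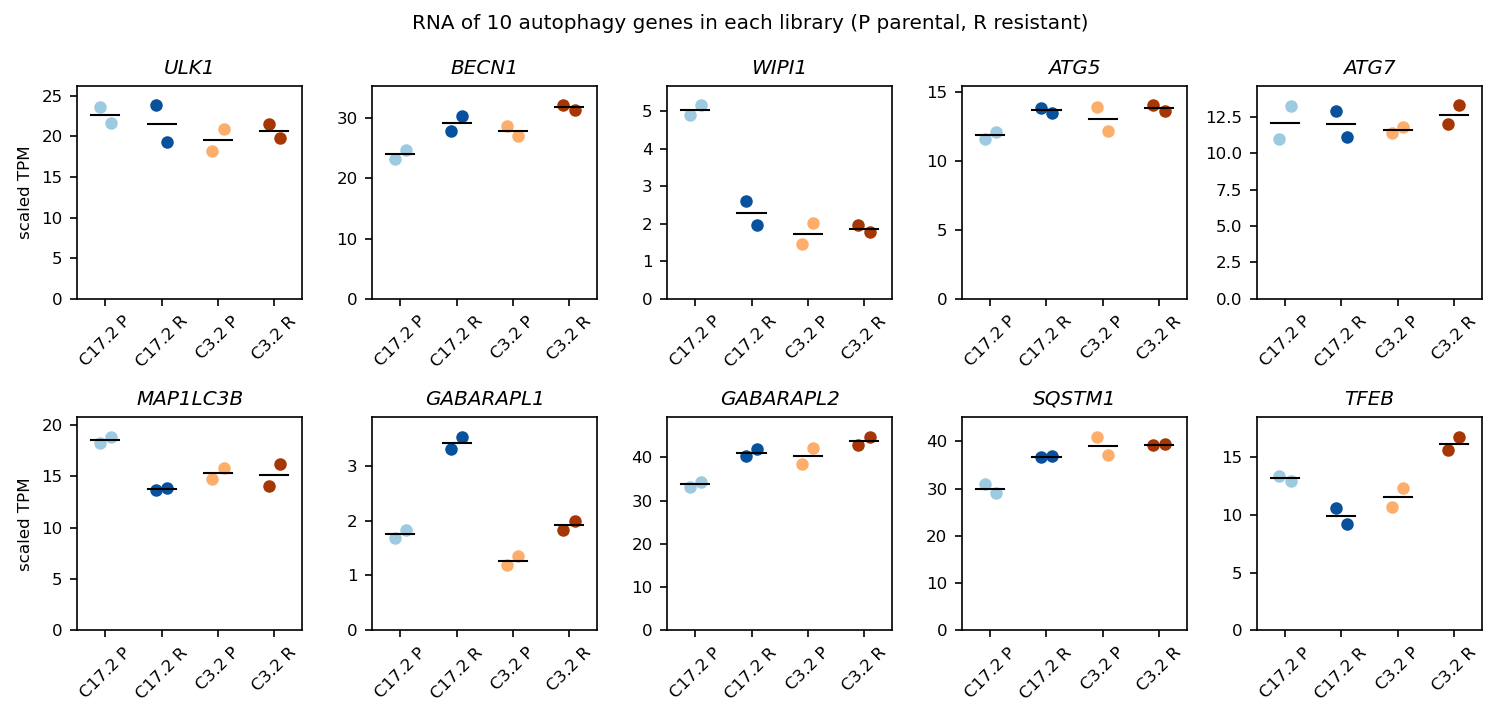
Level in scaled TPM (vertical axis, from 0) of each of the 10 genes in the 8 libraries, by clone and state (horizontal axis). Points are libraries and black lines are the means of 2 libraries. *WIPI1* is high in both parental libraries of C17.2 (4.91 and 5.16) and at or below 2.62 in the other 6, and *TFEB* moves down in resistant C17.2 and up in resistant C3.2.

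Earlier results of these data were known when the 10 genes were chosen. Their shares are thus not comparable with those of all tested genes, which are given as a description. In C17.2, 7 of the 10 genes passed the threshold of 0.05 on the adjusted p, and several of these calls were lost without 1 library, as given below. *GABARAPL1*, *SQSTM1*, *GABARAPL2*, and *BECN1* rose, and *WIPI1*, *MAP1LC3B*, and *TFEB* fell. Among all tested genes of this clone 27.3% passed, 13.4% as higher and 13.9% as lower in resistant cells. The median log2 fold change was 0.09 over the 10 genes and 0 over all tested genes. In C3.2, 1 of the 10 genes passed, *TFEB*, which rose, against 11.4% of all tested genes (4.46% higher, 6.9% lower), and the median over the 10 genes was 0.10. The resistant and parental libraries did not overlap for 8 of the 10 genes in C17.2, 5 of them above and 3 below, where 66% of all tested genes did not overlap (33.3% above, 32.7% below). In C3.2 they did not overlap for 5 genes, all of them above, where 55.8% of all tested genes did not overlap and 27.8% lay above. A comparison of 2 libraries with 2 cannot give an exact permutation p below 0.333, so every call rests on the spread that limma shared across genes. The clones were compared directly by testing the difference between their log2 fold changes. Of the 10 genes 2 passed, *TFEB* and *WIPI1*, both with the lower log2 fold change in C17.2, against 9.9% of all tested genes (4.99% lower).

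**Figure D2:**
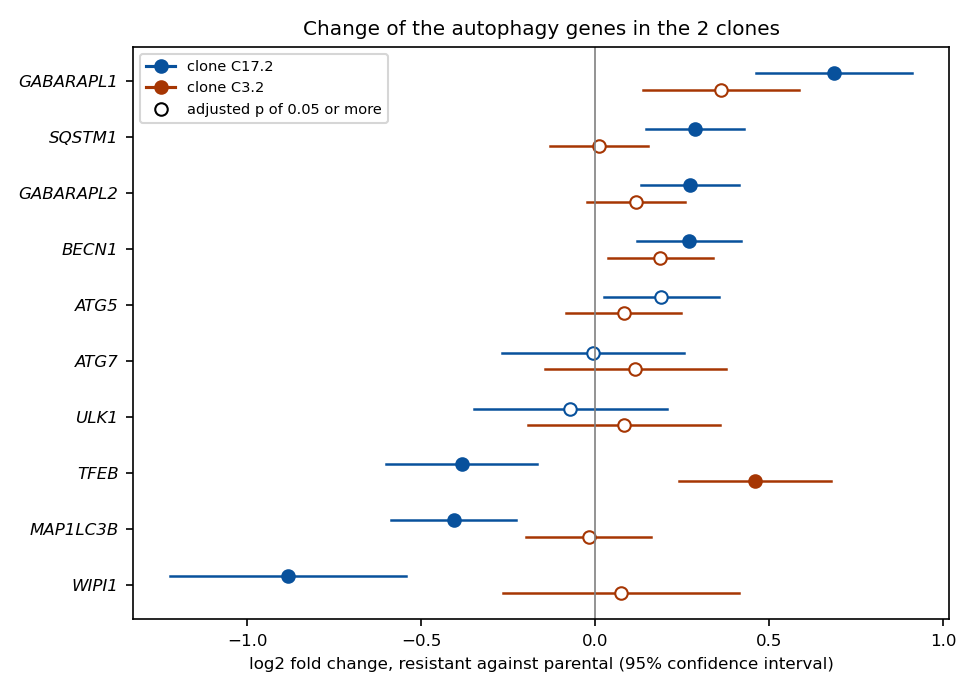
Log2 fold change of each of the 10 genes in resistant against parental cells (horizontal axis) in C17.2 and C3.2, with bars giving the 95% confidence interval from limma. Filled points passed an adjusted p of 0.05 and open points did not. *TFEB* has filled points on opposite sides of 0, at -0.38 and 0.46.

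*ULK1* encodes the kinase at the head of the pathway (GRCh38, chromosome 12, 131894622 to 131923150, plus strand). Its level was 23.5 and 21.6 scaled TPM in parental and 23.8 and 19.3 in resistant C17.2. The C3.2 levels were 18.2 and 20.9 in parental and 21.6 and 19.8 in resistant cells. The groups overlapped in both clones. Log2 fold changes were -0.07 (95% confidence interval -0.35 to 0.20) in C17.2 and 0.08 (-0.19 to 0.36) in C3.2, and neither passed. Of the other 3 tested genes of its complex, *ATG13*, the regulatory subunit, fell in C17.2 (log2 fold change of -0.20, adjusted p = 0.0265). That call held under 3 of 8 alternative settings and was -0.045 on TPM as deposited (adjusted p = 0.628). It was also lost without either parental library or resistant library 2 of C17.2, or either parental library of C3.2 (adjusted p between 0.0503 and 0.123).

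*BECN1*, the scaffold of the PI3P-forming lipid kinase complex (chromosome 17, 42810134 to 42833350, minus strand), rose in C17.2. Levels were 23.2 and 24.7 scaled TPM in parental and 27.8 and 30.4 in resistant cells of this clone. In C3.2 they were 28.6 and 26.9 in parental and 32.1 and 31.4 in resistant cells. The resistant libraries lay above the parental ones in both clones. The log2 fold change was 0.27 with a standard error of 0.062 in C17.2 (adjusted p = 0.0221). For C3.2 the value was 0.19 (adjusted p = 0.112), which passed after rescaling to protein-coding genes (0.29, adjusted p = 0.0304), and the clones differed by 0.08 with a 95% confidence interval of -0.13 to 0.29, which did not pass. The call in C17.2 was lost, with adjusted p between 0.055 and 0.118, without parental library 1, parental library 2, or resistant library 2 of that clone. Exons of *BECN1* share 300 bases with those of *PSME3* on the other strand, and *PSME3* rose in both clones (log2 fold changes of 0.45 and 0.20). The sources used here do not say whether strand was used in counting, and without strand the reads of such a pair cannot be told apart. *PIK3R4*, the regulatory subunit of the same complex, rose in C17.2 (log2 fold change of 0.44, adjusted p = 0.00793), and none of the other 6 genes of the complex passed in either clone (limma, with *RUBCN* at an unadjusted p under 0.05 in C17.2).

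*WIPI1*, which binds PI3P on forming autophagosomes, had the largest fall of the 10 genes in C17.2 (chromosome 17, 68420948 to 68457513, minus strand). Levels were 4.91 and 5.16 scaled TPM in parental and 2.62 and 1.96 in resistant C17.2. In C3.2 they were 1.46 and 2.02 in parental and 1.97 and 1.77 in resistant cells. The parental libraries of C17.2 thus stood above all the others, and resistant C17.2 came down to about the level of C3.2. The libraries of each clone carry their own run of numbers in the labels, so clone and any technical difference between these runs cannot be told apart. The log2 fold change was -0.88 with a standard error of 0.141 in C17.2 (adjusted p = 0.00566) and 0.08 with a 95% confidence interval of -0.26 to 0.41 in C3.2. The difference between these, -0.96 with a standard error of 0.199, passed (adjusted p = 0.0334). It missed the threshold with no filter on low values (-0.94, adjusted p = 0.0901) and without any 1 library other than resistant library 1 of C17.2 (adjusted p between 0.0533 and 0.116), whereas the fall within C17.2 passed without each of the 8 libraries. Exons of *WIPI1* share 829 bases with *ARSG*, a sulfatase gene on the other strand, which fell alongside it in C17.2 (log2 fold change of -1.11, adjusted p = 0.000749) and had 0.27 in C3.2 (adjusted p = 0.146). Of the other 6 genes of membrane source and PI3P binding, *WDR45*, another PI3P-binding relative, fell in C17.2 (log2 fold change of -0.23, adjusted p = 0.0272). That call held under 4 of 8 alternative settings, with -0.081 on TPM as deposited (adjusted p = 0.401). It was lost without parental library 2 or either resistant library of C17.2, or either parental library of C3.2 (adjusted p between 0.0524 and 0.126).

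The *WIPI1* promoter window in RefSeq (250 bases before to 50 bases after the start) held 10 copies of the GC box GGGCGG, counting both strands. As many were found in 0.214% of 35116 promoter windows. The stretch upstream of the start is shown for its repeated boxes, 9 of which lie within it from 28 to 236 bases before the start, at chr17:68457514-68457746 (GRCh38.p14), read on the minus strand from 5′ to 3′ with the boxes in capitals.

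WIPI1 promoter: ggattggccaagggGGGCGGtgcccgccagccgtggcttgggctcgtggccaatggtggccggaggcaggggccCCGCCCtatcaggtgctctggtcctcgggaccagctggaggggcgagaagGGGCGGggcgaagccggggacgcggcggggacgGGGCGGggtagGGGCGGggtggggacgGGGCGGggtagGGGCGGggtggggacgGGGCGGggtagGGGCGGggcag

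GC boxes were common among the 10 genes, in 13 of their 15 windows, against 45% of all windows and 66% of the windows of tested genes. *BECN1* alone had none, and genes on both sides of the change carried them. Motifs were chosen with these sequences in view, and a match in a window is a description and not a binding site.

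*ATG7* and *ATG5*, which encode the E1-like enzyme of ATG8 and ATG12 conjugation and the protein to which ATG12 is joined, had no call in either clone. *ATG7* (chromosome 3, 11272309 to 11557665, plus strand) had 10.9 and 13.2 scaled TPM in parental and 12.9 and 11.1 in resistant C17.2. The C3.2 levels were 11.4 and 11.8 in parental and 12 and 13.3 in resistant cells. The groups overlapped in C17.2 and not in C3.2, with log2 fold changes of -0.01 (95% confidence interval -0.27 to 0.25) and 0.12 (-0.15 to 0.38). Exons of *ATG7* share 1597 bases with *VGLL4* on the other strand, which reached 19.8 TPM as deposited. The log2 fold changes of *VGLL4*, -0.11 and -0.07, did not pass (limma, adjusted p = 0.488 and 0.730). *ATG5* (chromosome 6, 106045423 to 106325791, minus strand) had 11.6 and 12.1 scaled TPM in parental and 13.9 and 13.5 in resistant C17.2. The C3.2 levels were 13.9 and 12.2 in parental and 14 and 13.7 in resistant cells. Its resistant libraries lay above the parental ones in C17.2, with a log2 fold change of 0.19 that missed the threshold (adjusted p = 0.0878) and passed it on TPM as deposited (0.34, adjusted p = 0.0113) and after rescaling to the total of protein-coding genes (0.27, adjusted p = 0.0269). In C3.2 the *ATG5* libraries overlapped, with a log2 fold change of 0.08 (adjusted p = 0.490). Among the other 9 conjugation genes, the protease gene *ATG4A* rose in C17.2 (log2 fold change of 0.40, adjusted p = 0.0333). *ATG16L2*, a relative of the ATG5 partner ATG16L1, fell in C17.2 (-0.32, adjusted p = 0.00999) and rose in C3.2 (0.28, adjusted p = 0.0316). On TPM as deposited its fall was -0.16 (adjusted p = 0.0638). The call of *ATG4A* held under 6 of 8 alternative settings and that of *ATG16L2* under 7 in C17.2 and 5 in C3.2. *ATG4A* was lost without any 1 parental library of either clone or resistant library 2 of C17.2 (0.30 to 0.50 without 1 library). *ATG16L2* in C17.2 was lost without parental library 2 or resistant library 2 of that clone (-0.37 to -0.26). In C3.2 *ATG16L2* was lost without either parental library of C17.2 or any 1 library of C3.2 (0.26 to 0.30).

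The ATG8 genes moved in different directions in C17.2. *MAP1LC3B*, which encodes the LC3B protein used as a marker of autophagosomes (chromosome 16, 87383953 to 87404779, plus strand), had 18.2 and 18.8 scaled TPM in parental and 13.7 and 13.8 in resistant C17.2. In C3.2 it had 14.8 and 15.8 in parental and 14 and 16.2 in resistant cells. Resistant C17.2 was below its parental cells and just below the range of C3.2, where the groups overlapped. The log2 fold change was -0.41 with a standard error of 0.074 in C17.2 (adjusted p = 0.00926) and -0.02 with a 95% confidence interval of -0.20 to 0.16 in C3.2. The difference, -0.39 (95% confidence interval -0.64 to -0.13), missed the threshold with an adjusted p of 0.0702, and passed without resistant library 1 of C3.2 (-0.48, adjusted p = 0.0256). The fall in C17.2 missed the threshold, with adjusted p between 0.0524 and 0.0631, without parental library 2, resistant library 1, or resistant library 2 of that clone. The near-identical gene *MAP1LC3B2* had 1.25 to 2.05 TPM as deposited, so reads could be split between them, and the copies MAP1LC3BP1, GABARAPL3, BECN1P2, and SQSTM1P1 were listed at 0 in all libraries.

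*GABARAPL1* (chromosome 12, 10212458 to 10223128, plus strand) had the largest rise of the 10 genes in C17.2, from a low level. It had 1.68 and 1.82 scaled TPM in parental and 3.32 and 3.53 in resistant C17.2. In C3.2 it had 1.19 and 1.36 in parental and 1.84 and 2.00 in resistant cells. The resistant libraries lay above the parental ones in both clones. The log2 fold change was 0.69 with a standard error of 0.093 in C17.2 (adjusted p = 0.00315), and this call held without each of the 8 libraries. In C3.2 it was 0.36 with an adjusted p of 0.0575, which passed under 3 of 8 alternative settings, and the clones' difference of 0.32 missed the threshold (adjusted p = 0.178). With a pseudocount of 0.1 in place of 1 the C3.2 value was 0.56 (adjusted p = 0.0448).

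*GABARAPL2* (chromosome 16, 75566375 to 75577881, plus strand) also rose in C17.2. It had 33.2 and 34.4 scaled TPM in parental and 40.2 and 41.9 in resistant C17.2. The C3.2 levels were 38.4 and 42.2 in parental and 42.8 and 44.7 in resistant cells. The resistant libraries were higher in both clones, by a margin in C3.2 that was smaller than the spread of its parental libraries. Log2 fold changes were 0.27 with a standard error of 0.059 in C17.2 (adjusted p = 0.0169) and 0.12 in C3.2 (adjusted p = 0.251). The call in C17.2 was lost, with adjusted p between 0.0504 and 0.0953, without any 1 of that clone's 4 libraries.

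Short stretches of promoter are shown because they hold the only match among the windows of the 10 genes to a searched element. The CLEAR palindrome, a form of the element that TFEB is known to bind, is the E-box CACGTG with GT before it and AC after it. The palindrome and the E-box alone were in no window of the 10 genes, against 0.353% and 7.26% of all windows. With at most 1 mismatch the palindrome was found in 2.01% of windows, and of the 10 genes in *MAP1LC3B*, 52 bases before the start, at chr16:87392274-87392303 on the plus strand. The mismatch there lies within the E-box, which reads CACCTG. The cyclic AMP response element TGACGTCA was in 1.85% of windows and of the 10 genes in *GABARAPL1*, 30 bases before the start, at chr12:10212836-10212865 on the plus strand. TGATGNAA, the core of the composite element of C/EBP and ATF4, was in 3.62% of windows and in none of the 10 genes. Among the windows of tested genes, the palindrome was in 0.689%, or 3.19% with at most 1 mismatch. The E-box was in 9.55% of these, the cyclic AMP response element in 2.76%, and TGATGNAA in 1.99%. Both strands were searched, capitals mark the match, and both sequences are from RefSeq on GRCh38.p14. The starts are also those of RefSeq. For both genes they lie downstream of the Gencode start given above, so these stretches fall within the Gencode spans.

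MAP1LC3B promoter: cgcgtcgcgaGTCACCTGACcaggctgcgg

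GABARAPL1 promoter: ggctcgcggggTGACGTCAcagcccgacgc

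Within the ATG8 family, *GABARAP* took from 64.2% to 70.4% of the summed TPM of a library, *GABARAPL2* from 17.9% to 24.5%, *MAP1LC3B* from 7.35% to 10.0%, and *GABARAPL1* from 0.699% to 1.88%, whereas *MAP1LC3A* and *MAP1LC3C* were at or near 0. *GABARAP* itself had log2 fold changes of -0.06 and 0.08, neither of which passed. Ratios of genes within a library do not depend on how libraries are scaled. *GABARAPL1* per *MAP1LC3B* was 0.0919 and 0.0967 in parental and 0.243 and 0.255 in resistant C17.2, the mean being 2.64-fold higher. In C3.2 the same ratio was 0.0804 and 0.0856 in parental and 0.131 and 0.123 in resistant cells, 1.53-fold. *GABARAPL2* per *MAP1LC3B* was 1.82 in each parental library of C17.2 and 2.95 and 3.03 in its resistant libraries, whereas C3.2 had 2.60 and 2.66 in parental and 3.05 and 2.76 in resistant cells. The mean of this ratio was 1.64-fold higher in resistant than in parental C17.2. Both ratios were higher in each resistant library than in each parental library of its clone, by more in C17.2. These ratios were chosen after the values were seen and were not tested.

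*SQSTM1*, the p62 cargo receptor (chromosome 5, 179806398 to 179838078, plus strand), rose in C17.2. Levels were 30.9 and 29.1 scaled TPM in parental and 36.8 and 36.8 in resistant C17.2. In C3.2 they were 41 and 37.1 in parental and 39.2 and 39.4 in resistant cells. The parental libraries of C17.2 were the 2 lowest of the 8, and the groups of C3.2 overlapped. The log2 fold change was 0.29 with a standard error of 0.058 in C17.2 (adjusted p = 0.0140) and 0.01 with a 95% confidence interval of -0.13 to 0.15 in C3.2. The difference, 0.27 (95% confidence interval 0.08 to 0.47), did not pass (adjusted p = 0.0904). The rise in C17.2 missed the threshold (adjusted p between 0.062 and 0.0817) without parental library 2, resistant library 1, or resistant library 2 of that clone. Exons of *SQSTM1* share 1582 bases with *MRNIP* on the other strand, which had a log2 fold change of 0.23 in C17.2 that did not pass (adjusted p = 0.159). *SQSTM1* per *MAP1LC3B* was 1.69 and 1.55 in parental and 2.69 and 2.66 in resistant C17.2, whereas in C3.2 it was 2.78 and 2.34 in parental and 2.79 and 2.43 in resistant cells. The ratio of C17.2 thus moved from below all libraries of C3.2 into their range. Both genes already had calls in opposite directions in C17.2, so the ratio adds no separate result, and it was not tested. Clone and the run of library numbers cannot be told apart in this comparison.

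**Figure D3:**
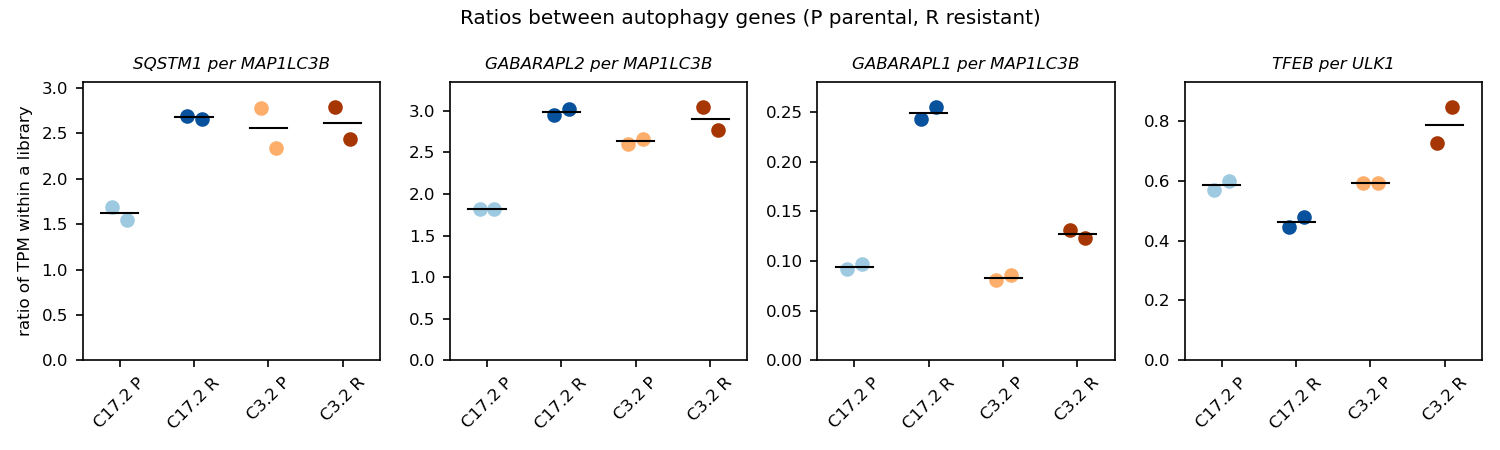
Ratio of TPM of 2 autophagy genes within each library (vertical axes, from 0) by clone and state (horizontal axis), with points for libraries and black lines for the mean of 2 libraries. *GABARAPL1* per *MAP1LC3B* is higher in resistant than in parental cells of both clones, and *TFEB* per *ULK1* goes down in resistant C17.2 and up in resistant C3.2.

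*TFEB* was the only one of the 10 genes to pass in both clones, and it moved in opposite directions (chromosome 6, 41683978 to 41736259, minus strand). Levels were 13.4 and 13 scaled TPM in parental and 10.6 and 9.19 in resistant C17.2. In C3.2 they were 10.7 and 12.3 in parental and 15.6 and 16.8 in resistant cells. Resistant cells were below parental cells in C17.2 and above them in C3.2, with no overlap in either. Log2 fold changes were -0.38 with a standard error of 0.090 in C17.2 (adjusted p = 0.0232) and 0.46 with the same standard error in C3.2 (adjusted p = 0.0265). The difference between the clones was -0.84 with a 95% confidence interval of -1.15 to -0.53 (adjusted p = 0.0131). It passed in 7 of 7 alternative settings, and the adjusted p lay between 0.0529 and 0.0672 without parental library 1 or 2 of C17.2 or parental library 1 of C3.2. The fall within C17.2 did not pass on TPM as deposited (-0.24, adjusted p = 0.106), with no filter on low values (adjusted p = 0.0623), or without parental library 1, parental library 2, or resistant library 2 of C17.2 (adjusted p up to 0.118). The rise within C3.2 did not pass without either parental library of either clone or resistant library 2 of C3.2 (adjusted p up to 0.138), nor with the 4 libraries of C3.2 alone (0.46, adjusted p = 0.0795) or with no filter (0.45, adjusted p = 0.0668). *TFEB* per *ULK1*, 2 genes with similar parental ratios in both clones, was 0.570 and 0.6 in parental and 0.445 and 0.477 in resistant C17.2, and 0.591 in each parental and 0.724 and 0.846 in the resistant libraries of C3.2. None of the other 5 transcription factors listed, *TFE3*, *MITF*, *FOXO1*, *FOXO3*, and *ZKSCAN3*, passed in either clone (limma, with *FOXO1* lower at an unadjusted p under 0.05 in C3.2).

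ATF4, which drives transcription in the responses to amino acid lack and to unfolded proteins, is known to regulate several of these genes. *ATF4* RNA was 344.1 and 341.2 scaled TPM in parental and 175.8 and 172.05 in resistant C17.2, and 239 and 241 in parental and 162 and 165 in resistant C3.2. It fell in both clones, with log2 fold changes of -0.97 (adjusted p = 3.2e-05) and -0.55 (adjusted p = 0.000875). Of 12 autophagy genes linked to ATF4 or its partner CHOP, *BECN1*, *GABARAPL2*, and *SQSTM1* rose and *MAP1LC3B* fell in C17.2, and none passed in C3.2 (limma, 0 of 12, with 1 of 12, *BECN1*, at an unadjusted p under 0.05). The share called was 33.3% in C17.2 and 0% in C3.2, beside 27.3% and 11.4% of all tested genes, and the medians were 0.09 and 0.08 beside 0. The 6 genes of this list that are not among the 10 described here had no call in either clone (limma, 0 of 6, also at an unadjusted p under 0.05).

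Besides the 10 genes, 115 other genes of autophagy and lysosomes were listed by role, and 109 of them were tested. In C17.2, 13 rose and 15 fell (25.7%), beside 27.3% of all tested genes, and in C3.2, 8 rose and 7 fell (13.8%), beside 11.4%. Their median log2 fold changes were 0.02 and 0.04, beside 0 over all tested genes. The shares of the 109 genes called were near the background in both clones. Of 25 genes of mTORC1 and amino acid sensing, 5 rose and 5 fell in C17.2 (40%, beside 27.3%). In C3.2, 2 rose and 2 fell (16%, beside 11.4%). *SESN2* and *DDIT4*, stress-induced inhibitors of mTORC1, fell in both clones, with log2 fold changes of -2.66 and -1.23 for *SESN2* and -1.73 and -0.43 for *DDIT4*. *SESN1*, a p53-induced relative of *SESN2*, rose in both (0.82 and 0.47), and the lysosomal scaffold genes *LAMTOR2* (0.46) and *LAMTOR1* (0.25) rose in C17.2 and in C3.2, respectively. Of 16 tested cargo receptors, with *SQSTM1* of the 10 genes counted, 2 rose and 4 fell in C17.2 (37.5%, beside 27.3%). Without *SQSTM1*, 1 rose and 4 fell in C17.2. In C3.2, 1 rose and 3 fell (25%, beside 11.4%). The receptors for the endoplasmic reticulum were among them: *CCPG1* fell in C17.2 (-1.60, adjusted p = 4.8e-05), *RETREG1* fell in both clones (-0.52 and -0.34), and *TEX264* rose in C3.2 (0.48). The mitochondrial receptors *FUNDC1* and *BNIP3L* rose in C17.2 (0.26) and fell in C3.2 (-0.47), respectively. The calls of *SESN2* in both clones and of *DDIT4*, *SESN1*, *LAMTOR2*, *CCPG1*, and *RETREG1* in C17.2 held under all 8 alternative settings and without each library. Those of *FUNDC1* in C17.2 and of *SESN1*, *LAMTOR1*, *RETREG1*, and *BNIP3L* in C3.2 held under 5 or 6 settings and were lost without at least 4 of the 8 libraries in turn (adjusted p up to 0.161).

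Of 14 genes of fusion with lysosomes 2 fell in C17.2, and 1 rose and 2 fell in C3.2, which is 14.3% and 21.4% beside 27.3% and 11.4% of all tested genes. *VAMP8*, the lysosomal SNARE that pairs with STX17 on autophagosomes, had the largest falls. It went from 9.74 and 9.75 to 3.05 and 2.40 scaled TPM in C17.2 and from 7.54 and 6.70 to 0.30 and 0.28 in C3.2, log2 fold changes of -1.54 and -2.65 (adjusted p = 0.000238 and 0.000159). *VPS18* (-0.25) fell in C17.2, and in C3.2 *VPS41* (-0.45) fell and *TECPR1* (0.45) rose. *VPS18* held under 4 of 8 alternative settings, with -0.11 on TPM as deposited (adjusted p = 0.333), and was lost without either parental library or resistant library 2 of C17.2 (adjusted p up to 0.125). *VPS41* held under 4 settings and was lost without either parental library of C17.2 or any 1 library of C3.2 (-0.50 to -0.40 without 1 library). *TECPR1* held under 6 and was lost without any 1 parental library of either clone or resistant library 1 of C3.2 (0.35 to 0.54). Of 23 tested lysosomal genes 5 rose and 1 fell in C17.2, and 3 rose and none fell in C3.2 (limma, with 4 higher and 1 lower at an unadjusted p under 0.05). These shares, 26.1% and 13%, were near those of all tested genes. The protease gene *CTSB* rose in both clones (0.27 and 0.31). *ATP6V1A* of the proton pump rose (0.30) and the chloride exchanger gene *CLCN7* fell (-0.27) in C17.2, and *PSAP*, which encodes the saposins, rose in C3.2 (0.38). With the 4 libraries of C3.2 alone, *CTSB* and *PSAP* missed the threshold in that clone (limma, adjusted p = 0.0777 and 0.0662). Without 1 library, their C3.2 values ranged from 0.27 to 0.36 for *CTSB* and from 0.32 to 0.44 for *PSAP*. The C17.2 value of *CTSB* was not among those rerun. *CLCN7* was -0.11 on TPM as deposited (adjusted p = 0.311) and was lost without any 1 library of C17.2 (adjusted p between 0.0595 and 0.0874), and *ATP6V1A* was lost without any of these or either parental library of C3.2 (adjusted p up to 0.133). The difference between the clones was past the threshold for 8 of the 109 genes (7.34%, beside 9.9% of all tested genes), 2 as higher and 6 as lower. *CCPG1* was the largest of these, at 25.7 and 26.9 scaled TPM in parental C17.2 and 8.12 and 7.85 in its resistant cells, beside 6.87 to 8.53 in the 4 libraries of C3.2.

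**Figure D4:**
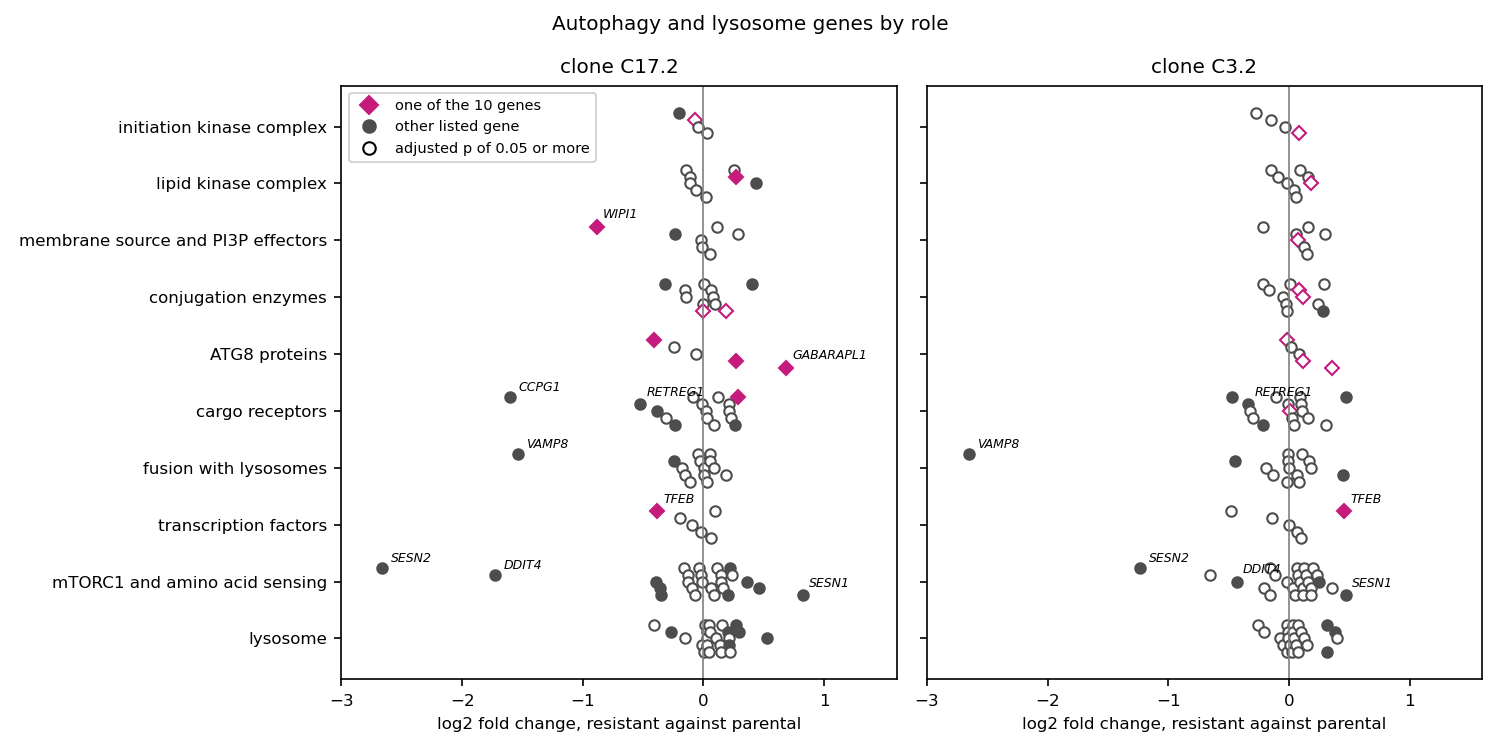
Log2 fold change in resistant against parental cells (horizontal axis) of tested autophagy and lysosome genes, sorted by role (rows), in C17.2 and C3.2. Diamonds are the 10 genes and circles are other listed genes, and filled symbols passed an adjusted p of 0.05. Most symbols lie near 0, whereas *SESN2*, *DDIT4*, *VAMP8*, and *CCPG1* lie to the left in C17.2.

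The genes whose levels followed *WIPI1* and *SQSTM1* most closely were sought among 10776 protein-coding genes over the 8 libraries, as a description. For *WIPI1* these were *NFE2L1* (Pearson's r = 0.987), *USP22* (0.985), and *STK10* (0.984). For *SQSTM1* they were *GNPNAT1* (0.997), *CYCS* (0.988), and *SNRPC* (0.976). The 8 points share clone, state, and run of library numbers, and no test was made.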

How the data were processed

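RNA-seq libraries of parental and resistant cells of C17.2 and C3.2 were analyzed, grouped by the labels. Total RNA was depleted of ribosomal RNA by the authors. The deposited TPM per gene and library came from reads trimmed with TrimGalore 0.6.3 and aligned with STAR 2.7.9a (GRCh38.p13), by quantification in RSEM 1.3.1 with Gencode 31, and were not scaled between libraries. The methods describe paired-end and the labels single-end reads.

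A gene was tested if any library reached a TPM of 1. Library factors were trimmed means of log2 ratios to the mean library (30% of ratios and 5% of means trimmed at each end). The test was limma 3.58.1 (R 4.3.3) on log2(scaled TPM + 1) with an intensity trend, in 1 model of the 4 groups, two-sided, with Benjamini-Hochberg adjustment over 15614 genes and a threshold of 0.05. The study used limma-voom, which needs counts. No covariate could be used, since clone and the run of library numbers in the labels coincide. The script was tested on simulated data. Tables and plots were made in Python 3.11.15 with pandas 2.3.3 and matplotlib 3.10.9. Other scalings, pseudocounts, filters, models, and sets of libraries are given in the closing section.

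The 10 genes and the lists were chosen with earlier results of these data known. Beside the 10 genes, the text names *CTCF*, *ATF4*, copies of the genes, up to 2 listed genes with the largest rise and up to 2 with the largest fall past the threshold per list and clone (mean TPM of at least 1), and the 3 genes most correlated with *SQSTM1* and with *WIPI1*. A gene that this rule named is not reported here. Marker genes, overlapping genes, *GABARAP*, and the second clone's value of genes named for 1 clone were added after their values were seen. Positions and exon overlaps are from Gencode 44, and promoter windows from RefSeq on GRCh38.p14, which held all 10 genes.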

Additional observations from a re-analysis of the deposited data

Results flagged for a closer look

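The change in resistant cells differed between the clones, by limma's test of the difference of log2 fold changes (C17.2 minus C3.2), for 8 of the 34 genes that the rule named and that were tested this way. Genes beside the 10 were named because they had passed in a clone of these data, which favors a difference. The share of 8 in 34 is thus not comparable with the 9.9% of all tested genes whose difference passed. Of the 10 autophagy genes, *WIPI1* (-0.96) and *TFEB* (-0.84) were among the 8. *TFEB* moved in opposite directions, whereas *WIPI1* fell in C17.2 and had no call in C3.2. Among the listed genes *CCPG1* differed by -1.76, *SESN2* by -1.43, *DDIT4* by -1.29, *ATG16L2* by -0.60, and *WDR45* by -0.38, each with the lower log2 fold change in C17.2. *VAMP8* differed by 1.12, with the deeper fall in C3.2. *SESN2* and *DDIT4* fell in both clones, and *ATG16L2* fell in C17.2 and rose in C3.2. The difference of *WIPI1* was not called with no filter on low values (-0.94, adjusted p = 0.0901). It was also lost without any 1 library other than resistant library 1 of C17.2. The difference of *TFEB* was lost without either parental library of C17.2 or parental library 1 of C3.2. Without 1 library, the difference of *WIPI1* ranged from -1.11 to -0.81 and that of *TFEB* from -0.94 to -0.75. That of *WDR45* was called under 4 of 7 alternative settings (-0.29 on TPM as deposited, adjusted p = 0.116) and lost without any 1 library other than resistant library 2 of C3.2 (adjusted p between 0.0643 and 0.125), and that of *ATG16L2* was lost without parental library 2 of C3.2 (adjusted p = 0.0508). Clone cannot be told apart from the run of library numbers in these differences of change.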

How the results depend on the processing

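No paired analysis was possible because the labels give the libraries no replicate numbers. All alternatives were run on the 10 genes as set out beforehand, and on the other named genes as an addition after seeing the data. In C17.2 *BECN1*, *GABARAPL1*, *GABARAPL2*, *MAP1LC3B*, *SQSTM1*, and *WIPI1* passed under each of 8 alternatives and *TFEB* under 6. In C3.2 the number of the 10 genes called, 1, was 3 after rescaling to the total of protein-coding genes, 2 with a pseudocount of 0.1, 2 without the intensity trend, 0 with no filter, and 0 with the clone's libraries alone. For the difference between the clones 2 became 1 with no filter, where *WIPI1* was lost. All calls in C3.2, 1773, became 1167 with no filter and 386 with the clone alone. Without 1 library, the 10 genes gave 2 to 7 calls in C17.2, 0 to 1 in C3.2, and 0 to 2 for the difference, and all genes gave 2398 to 4575, 343 to 1820, and 561 to 1788. The direction turned only in values that never passed. For *ATG7* in C17.2 it was 0.14 as deposited, 0.072 rescaled over coding genes, 0.012 after quantile normalization, and 0.0088 with no filter, and -0.13 to 0.12 without 1 library (-0.25 to 0.0025 for its difference). *MAP1LC3B* in C3.2 was 0.043 as deposited and 0.078 rescaled (-0.12 to 0.076 without 1 library), and *ULK1* in C17.2 was 0.083 and 0.010 (-0.22 to 0.076). In C3.2 without 1 library *ULK1* was -0.013 to 0.18, *ATG5* -0.0062 to 0.17, *SQSTM1* -0.059 to 0.080, and *WIPI1* -0.074 to 0.23. TPM as deposited moved the median of all genes by 0.13 in C17.2. The share of calls that were higher was 49.1%, 39.3%, and 49.6% (C17.2, C3.2, difference). It was 75.1%, 57.8%, and 64% as deposited, 64.5%, 70.2%, and 45.6% rescaled, and 54.1%, 50.8%, and 45% after quantile normalization. Of 40 values of other named genes none turned, and 20 passed under each alternative, 17 of these also without each library. The causes were not tested. With 2 libraries a group and no depth, changes of *ULK1* and *ATG7* as large as their intervals could not be detected.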
